A study of Homo sapiens with 9 samples.

Results

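The first 12 h of AML1-ETO expression in U937 cells were examined by comparing 2 RNA-seq libraries, which are 2 of the 9 libraries of the series. Both came from U937-AE, a stable line (clone #4) that carries an HA-tagged AML1-ETO cDNA in a doxycycline-inducible retroviral vector. One library was made before induction (0 h) and the other after 12 h in 5 μg/ml doxycycline. U937 is a human monocytic cell line. The remaining libraries came from the same line at 48 h, from a line with the empty vector (U937-CTR) at 0, 12 and 48 h, and from a line with inducible HA-tagged ETO2-GLIS2 (U937-EG, clone #14) at 0, 12 and 48 h. The dose of doxycycline was the same at 12 and 48 h in every line, and the 0 h libraries were made before it was added. Each condition had 1 library, so no difference below has a replicate check and no p-value was computed. A single clone stands for AML1-ETO, and what belongs to the fusion protein and what belongs to the clone cannot be told apart. In bulk RNA, fewer cells of a type and less RNA per cell also cannot be told apart.

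AML1-ETO is the product of the t(8;21) translocation of acute myeloid leukemia. It joins the Runt domain of the transcription factor RUNX1 (AML1), which binds DNA, to almost the whole of ETO (RUNX1T1), a protein that recruits corepressors and histone deacetylases. The fusion therefore occupies RUNX1 sites, often together with ETS and C/EBP factors, and it is known for blocking the maturation of myeloid cells.

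The deposited unit is FPKM, the reads on a gene scaled to its exon length in kilobases and to the library total in units of 1e6 reads. A change is given throughout as log2 of FPKM plus 0.1 at 12 h over FPKM plus 0.1 at 0 h in the same line. Of 60623 genes, 11775 had a mean of at least 1 FPKM over both AML1-ETO libraries and were tested, and 9692 of these code for proteins. A gene was called when its change passed 2-fold and still passed 2-fold after the change of U937-CTR had been subtracted. This remainder is called the difference. The AML1-ETO libraries held 16581210 reads on genes at 0 h and 15434246 at 12 h, as recovered from the FPKM values, and intervals given below are 95% exact intervals for the ratio of these reads. They cover counting error only, since reads that carry no molecular identifier may be copies of 1 molecule and the spread between cultures was not measured.

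The labels were checked first on RUNX1T1 (ENSG00000079102), the ETO part of the fusion, whose reads include those of the transgene. In U937-AE, RUNX1T1 measured 0.512, 22.2 and 28.7 FPKM at 0, 12 and 48 h. It did not exceed 0.024 FPKM in any library of the other lines. The 12 h level was thus already close to the 48 h level, and a low level was present before doxycycline was added. RUNX1 (ENSG00000159216), which supplies the other part, had 17.4 and 17.7 FPKM at 0 and 12 h, a change of 0.03 with an interval from -0.03 to 0.09.

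At 12 h, 299 genes were higher (2.54% of the genes tested) and 161 were lower (1.37%). Among protein-coding genes the counts were close to equal, with 59 higher (0.609% of those tested) and 60 lower (0.619%). RUNX1T1 is itself 1 of the 59. Many calls in both directions fell on short or noncoding genes with few reads. Of the 299 higher genes, 77 were lncRNAs, 52 were pseudogenes and 133 (44.5%) had an exon length under 300 bases, a class that made up 4.25% of the genes tested. Of the 161 lower genes, 20 were lncRNAs, 14 were pseudogenes and 65 (40.4%) were under 300 bases. The median higher gene had 19 reads in the library where it had more and the median lower gene 22, against 179 for the median protein-coding higher gene and 626.5 for the median protein-coding lower gene. The interval lay wholly past 2-fold for 32 of the 59 higher and 37 of the 60 lower protein-coding genes, and the account below therefore turns to protein-coding genes.

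**Figure D1:**
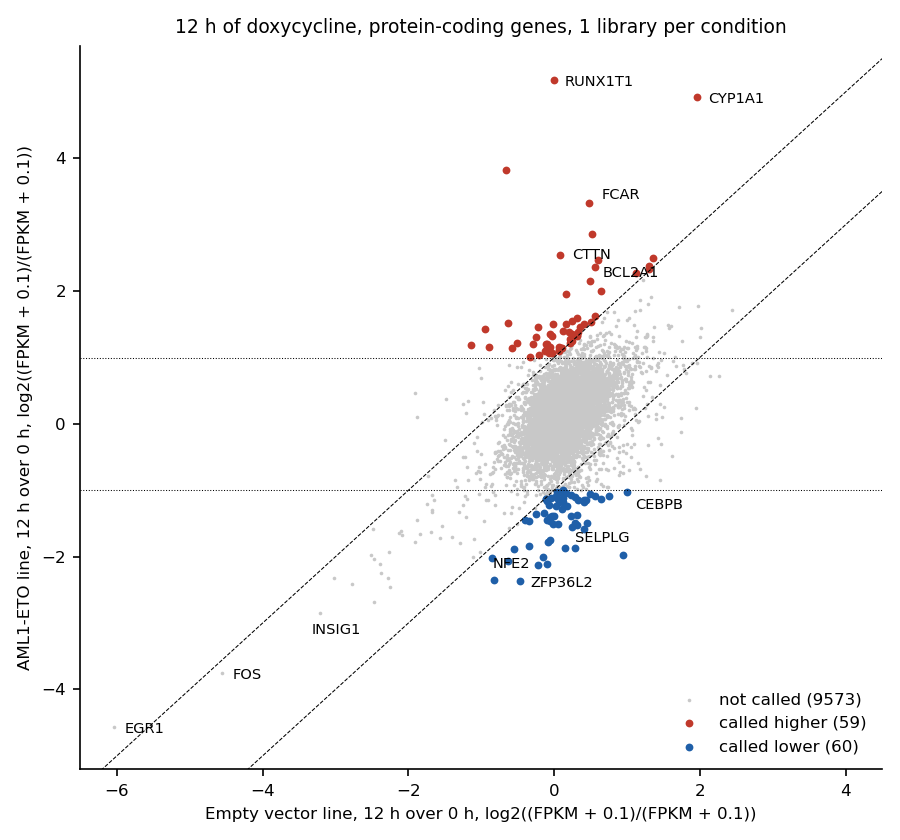
Changes from 0 h to 12 h in U937-CTR (x axis) and in U937-AE (y axis) for 9692 protein-coding genes, as log2 of FPKM plus 0.1. Dotted lines mark 2-fold in U937-AE, dashed lines mark a difference of 2-fold between the lines, red points are the 59 genes called higher and blue points the 60 called lower. EGR1, FOS and INSIG1 lie at the lower left because they were lower at 12 h in both lines.

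The line with no fusion protein, U937-CTR, also changed over the 12 h. Before subtraction, 717 genes were over 2-fold higher in U937-AE (6.09%) and 264 were over 2-fold lower (2.24%), while in U937-CTR 553 were higher (4.7%) and 208 lower (1.77%). The median change over all genes tested was 0.17 in U937-AE and 0.13 in U937-CTR, and the median difference was 0.02. EGR1, an immediate early factor, went from 66.4 to 2.71 FPKM in U937-AE and from 40.9 to 0.53 FPKM in U937-CTR. FOS, a subunit of AP-1, went from 134.9 to 9.96 FPKM and from 73.1 to 3.01 FPKM in the same order. Neither was called, since the lower level at 12 h was common to both lines. The same held for the 22 tested genes of cholesterol synthesis and uptake, whose median change was -1.57 in U937-AE and -1.79 in U937-CTR, with none called. INSIG1, which holds back sterol-regulated transcription, had 292.2 and 40.4 FPKM at 0 and 12 h in U937-AE and 380.4 and 41.0 FPKM in U937-CTR.

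Transcription factors of the myeloid program were among the genes with the largest negative differences. RUNX1, PU.1 and the C/EBP factors are known to act together in monocytic cells. All gene lists in this report were written with earlier results of these data known. Their shares and medians are therefore descriptions and not independent evidence. Of 34 tested transcription factors of myeloid and early haematopoietic cells, 5 were lower (14.7%, against 0.619% of all protein-coding genes tested) and none was higher. Of the 34, 26 had a difference below 0, and the median was -0.22, against 0.02 over all genes tested. With a pseudocount of 1 FPKM 3 members were lower. The factors that were lower are CEBPB, NFE2, CEBPA, ID2 and IRF5. IRF5, which activates inflammatory cytokine genes, is given here because of the count and was outside the rule for named genes. It went from 27.6 to 12.5 FPKM.

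CEBPA (ENSG00000245848), the C/EBP factor required for granulocyte and monocyte commitment, had 98.5, 37.5 and 6.62 FPKM at 0, 12 and 48 h in U937-AE. In U937-CTR it had 61.0, 71.7 and 82.9 FPKM at the same times. U937-AE thus lay above U937-CTR at 0 h and below it at 12 h. The change was -1.39 (interval -1.48 to -1.31) and the difference was -1.63. U937-EG also had less CEBPA at 12 h, with 49.2 and 27.04 FPKM at 0 and 12 h, a change of -0.86.

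CEBPB (ENSG00000172216), a C/EBP factor of monocyte and macrophage maturation, behaved otherwise. It went from 30.4 to 14.9 FPKM in U937-AE and from 21.03 to 42.1 FPKM in U937-CTR, so the lines moved apart in opposite directions. The change of -1.03 (interval -1.20 to -0.86) and the vector change of 0.998 made up the difference of -2.03 in nearly equal parts. At 48 h CEBPB was at 19.8 FPKM in U937-AE, above its 12 h level.

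NFE2 (ENSG00000123405), a basic leucine zipper factor of megakaryocytes, erythroid cells and myeloid cells, had 9.57, 2.14 and 0.06 FPKM at 0, 12 and 48 h in U937-AE. It stayed between 3.85 and 6.37 FPKM in U937-CTR. Its change was -2.11 (interval -2.53 to -1.81). In U937-EG NFE2 went from 8.51 to 2.20 FPKM, a change of -1.90, so this gene was lower at 12 h in both lines that express a fusion protein. ID2, an inhibitor of basic helix-loop-helix factors, went from 17.7 to 4.27 FPKM in U937-AE and from 20.1 to 11.1 FPKM in U937-CTR. Its difference was -1.18.

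SPI1, which encodes PU.1, the ETS factor of the myeloid lineage, was not called at 12 h. It had 92.6, 53.1 and 11.9 FPKM at 0, 12 and 48 h in U937-AE, and 67.0, 76.9 and 97.3 FPKM in U937-CTR. The change of -0.80 (interval -0.89 to -0.72) and the difference of -0.9996 place it short of the 2-fold limit. RUNX3 (63.1 and 37.4 FPKM, difference -0.62) and ELF4 (21.6 and 13.4 FPKM, difference -1.06 with a change of -0.69) were not called either. LMO2, ELF1 and TCF12, partners of haematopoietic transcription complexes, had differences of 0.32, -0.04 and -0.18.

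The ETO family and its corepressors are among the factors through which the fusion protein is known to act. Of the 20 tested genes of RUNX factors, CBFB, the ETO family and their corepressors, 1 was higher and 1 was lower. Each is 5.0%, against 0.609% higher and 0.619% lower of all protein-coding genes tested. The higher gene is RUNX1T1 itself. The lower gene is CBFA2T3, which encodes ETO2, a paralog of ETO. It had 5.26, 2.28 and 0.22 FPKM at 0, 12 and 48 h in U937-AE and 4.75, 6.38 and 6.002 FPKM in U937-CTR. Its change was -1.17 (interval -1.45 to -0.97) and its difference -1.59. In U937-EG, whose construct carries part of this gene, it went from 4.10 to 11.4 FPKM. The histone deacetylase genes HDAC1, HDAC2 and HDAC3 had differences of 0.04, 0.32 and 0.03.

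The largest fall in absolute level among the lower genes was that of ZFP36L2 (ENSG00000152518), an RNA-binding protein that speeds the decay of mRNAs with AU-rich elements. It had 369.3, 71.5 and 12.2 FPKM at 0, 12 and 48 h in U937-AE. In U937-CTR it had 334.3, 241.7 and 205.3 FPKM, and in U937-EG 204.0 and 130.0 FPKM at 0 and 12 h. All lines were lower at 12 h, and U937-AE by the most. The change rested on 22616 reads at 0 h and 4076 at 12 h and was -2.37, with an interval from -2.42 to -2.32. The vector change was -0.47 and the difference -1.90.

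BHLHE40, a basic helix-loop-helix repressor, went from 22.9 to 6.73 FPKM and then to 1.31 FPKM at 48 h, while it stayed between 23.9 and 25.5 FPKM in U937-CTR. CITED4, a coactivator that binds CBP and p300, went from 46.1 to 21.7 FPKM in U937-AE and from 28.5 to 48.0 FPKM in U937-CTR. In U937-EG it was also lower at 12 h, with 19.8 and 11.5 FPKM at 0 and 12 h. CXXC5, a zinc finger protein that binds unmethylated CpG and modulates WNT signalling, went from 29.7 to 11.3 FPKM and then to 0.80 FPKM. In U937-CTR CXXC5 had between 29.8 and 31.9 FPKM, and in U937-EG it fell as well, with 23.8, 16.7 and 12.5 FPKM at 0, 12 and 48 h. OLIG1, a basic helix-loop-helix factor better known from oligodendrocytes, went from 10.1 to 4.56 FPKM and had a difference of -1.78.

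**Figure D2:**
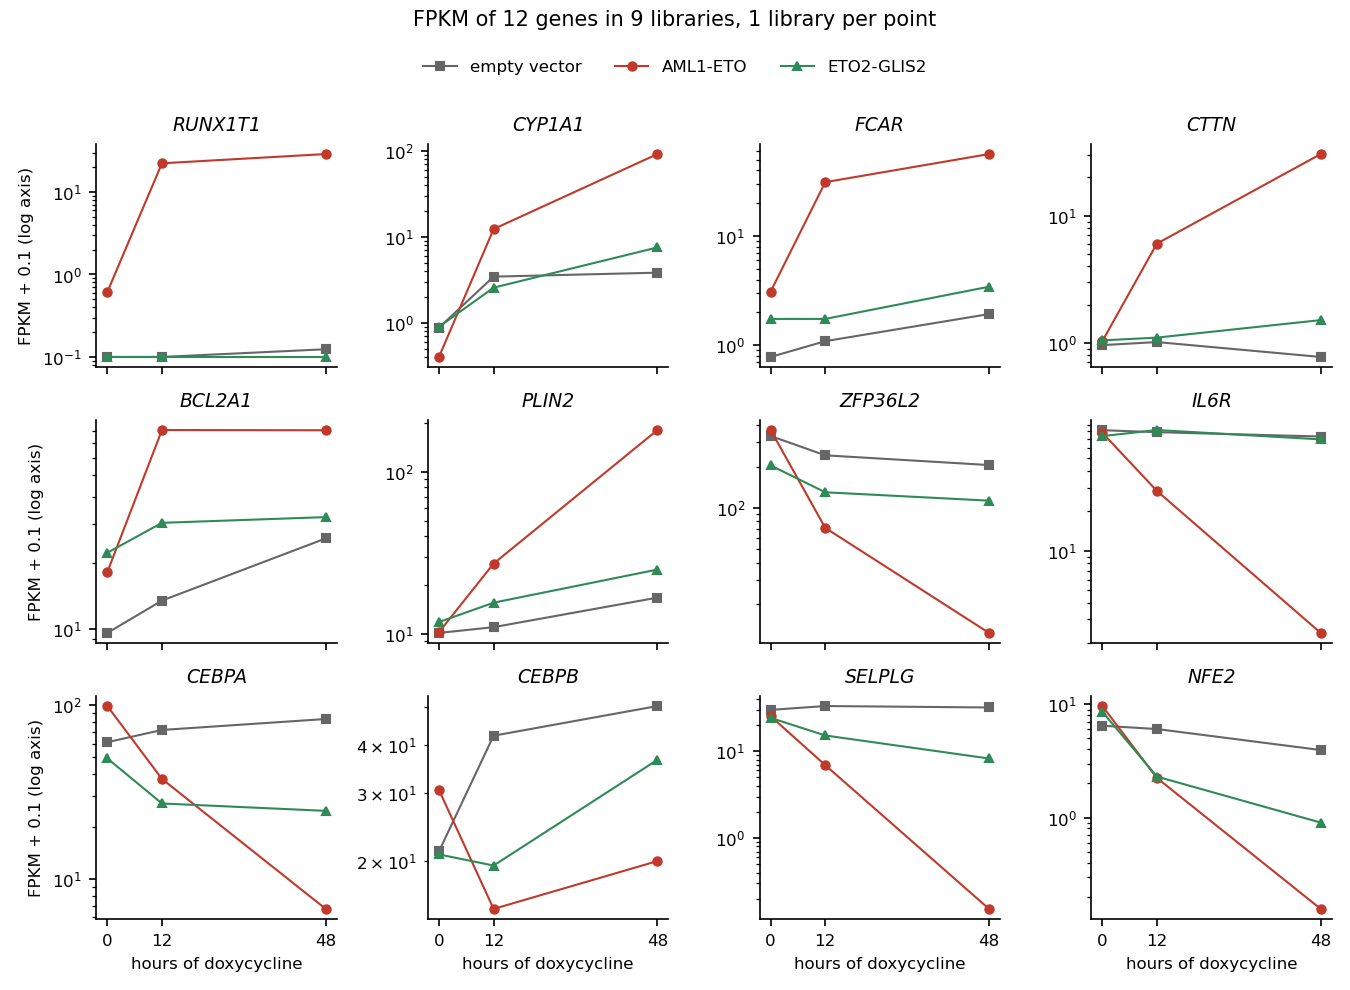
FPKM plus 0.1 (log axis) of 12 genes against hours of doxycycline in U937-AE (red circles), U937-CTR (grey squares) and U937-EG (green triangles), 1 library per point. CEBPA, SELPLG, ZFP36L2, IL6R and NFE2 were lower at 12 h and lower again at 48 h in U937-AE, while CYP1A1, FCAR, CTTN and PLIN2 were higher at 12 h and higher again at 48 h.

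Receptors and adhesion molecules formed the next group. Of 19 tested cytokine and growth factor receptors, 2 were lower (10.5%, against 0.619% of all protein-coding genes tested) and none higher, and 16 had a difference below 0. The median difference of -0.41 came with a median change of -0.01 in U937-AE and 0.28 in U937-CTR, so the typical member was higher in U937-CTR rather than lower in U937-AE. With a pseudocount of 1 FPKM or a mean of at least 5 FPKM 1 member was lower. IL6R, the interleukin-6 receptor, had 78.2, 28.2 and 2.27 FPKM at 0, 12 and 48 h in U937-AE. Its range over the 6 libraries of U937-CTR and U937-EG was 69.6 to 81.9 FPKM. The change was -1.47 (interval -1.53 to -1.41). IL10RA, a chain of the interleukin-10 receptor, went from 4.45 to 2.02 FPKM, with 4.31 and 5.28 FPKM in U937-CTR. CSF3R and CSF2RB, the receptors for G-CSF and the shared chain of GM-CSF, interleukin-3 and interleukin-5, had differences of -0.20 and -0.06.

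Of 23 tested integrins, selectin ligands and homing molecules, 3 were lower (13.0%, against 0.619% of all protein-coding genes tested) and none higher. These were SELPLG, FUT7 and ADGRE2, of which 1 was left with a mean of at least 5 FPKM. The median difference was -0.28, with a median change of -0.01 in U937-AE and 0.27 in U937-CTR. SELPLG (ENSG00000110876) encodes PSGL-1, the ligand by which leukocytes roll on selectins, and FUT7 encodes the fucosyltransferase that adds the fucose needed for that binding. SELPLG had 25.2, 6.81 and 0.05 FPKM at 0, 12 and 48 h in U937-AE and between 29.8 and 33.0 FPKM in U937-CTR. U937-EG also had less at the later times, with 24.1, 15.1 and 8.14 FPKM. The change of SELPLG in U937-AE was -1.87 (interval -2.09 to -1.69). FUT7 had 4.27, 0.90 and 0.00 FPKM at 0, 12 and 48 h in U937-AE and 3.19 and 2.71 FPKM at 0 and 12 h in U937-CTR. The ligand and the enzyme that modifies it were therefore both lower at 12 h. ADGRE2, an adhesion G protein-coupled receptor of myeloid cells, went from 3.78 to 1.73 FPKM. The integrin genes were not called, and ITGB2, which encodes CD18, had 310.9 and 308.2 FPKM at 0 and 12 h.

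CCR1, a receptor for CCL3 and CCL5, went from 8.30 to 3.94 FPKM in U937-AE and from 6.16 to 8.66 FPKM in U937-CTR. CCL23, a chemokine that binds CCR1, went the other way, from 1.38 to 7.07 FPKM, with a difference of 1.15. In U937-CTR it was also higher at 12 h, with 2.15 and 4.81 FPKM. These were the only members called among 13 tested chemokines, receptors and inflammatory cytokines. Each is 7.69%, against 0.609% higher and 0.619% lower of all protein-coding genes tested.

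Adaptors and kinases that carry signals from immunoreceptors came next. Of 24 tested, 2 were lower (8.33%, against 0.619% of all protein-coding genes tested) and none higher. The list is named for LAT2, which is among the 2, and was written with earlier results of these data known. The share is therefore a description and not independent evidence. A difference below 0 was seen for 20, with a median of -0.43 against 0.02 over all genes tested. LAT2 (NTAL), a transmembrane adaptor of Fc receptor signalling, had 35.8, 12.5 and 0.23 FPKM at 0, 12 and 48 h in U937-AE. It stayed between 34.3 and 36.3 FPKM in U937-CTR. Its change was -1.50 (interval -1.62 to -1.40). LCP2 (SLP-76), a cytosolic adaptor, went from 23.8 to 10.5 FPKM, against 20.4 and 21.3 FPKM in U937-CTR. The kinases SYK, LYN and BTK had differences of -0.33, -0.12 and 0.12 and were not called. PRKCD and PTPN22, a protein kinase C and a phosphatase of immunoreceptor signalling, were lower as well. PRKCD, which is outside the rule for named genes and was picked after its values were seen, went from 58.7 to 24.8 FPKM. PTPN22 went from 9.24 to 4.57 FPKM.

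NFKBIA, the inhibitor IκBα, went from 7.57 to 2.59 FPKM and reached 1.36 FPKM at 48 h, while U937-CTR had 8.37 and 8.69 FPKM at 0 and 12 h. Of 20 tested NF-κB subunits and target genes, NFKBIA alone was lower and BCL2A1 alone was higher. Each is 5.0%, against 0.619% lower and 0.609% higher of all protein-coding genes tested. TRIB1, a pseudokinase that leads C/EBPα to degradation, went from 2.30 to 0.47 FPKM, on 156 and 30 reads. It was the only member called of 19 tested feedback inhibitors of receptor tyrosine kinase and MAPK signalling (5.26%, against 0.619%). PIM1, a serine/threonine kinase induced by cytokines, went from 17.2 to 7.68 FPKM against 19.0 and 25.3 FPKM in U937-CTR.

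Of 21 tested immediate early genes, 3 were lower (14.3%, against 0.619% of all protein-coding genes tested) and none was higher beyond U937-CTR. IER3 went from 1.88 to 0.29 FPKM on 42 and 6 reads. NR4A2, an orphan nuclear receptor, went from 1.99 to 0.72 FPKM and JUND, an AP-1 subunit, from 34.7 to 15.9 FPKM. JUND was also lower in U937-EG, from 20.5 to 9.30 FPKM, and it had returned to 33.1 FPKM at 48 h in U937-AE. The median change of the list was -0.95 in U937-AE and -0.11 in U937-CTR, and the median difference was -0.22. The count of 3 became 1 with a pseudocount of 1 FPKM or a mean of at least 5 FPKM, and 10 when U937-CTR was not used.

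Further lower genes that met the rule for named genes belong to no single group. ATP2B4, a plasma membrane calcium pump, went from 37.3 to 10.4 FPKM against 41.9 and 33.1 FPKM in U937-CTR. PHACTR3, a regulator of protein phosphatase 1 and actin, went from 16.8 to 5.65 FPKM and then to 0.17 FPKM. LGALS12, a galectin, went from 10.1 to 4.77 FPKM. It was the only member called of 14 tested genes known to be high in t(8;21) leukemia (7.14%, against 0.619%). XAGE1B, a cancer-testis antigen with near-identical copies between which reads cannot be told apart, went from 8.62 to 2.29 FPKM in U937-AE and was at 0.83 and 1.03 FPKM in U937-CTR. Of 18 tested genes known to be lowered by AML1-ETO in myeloid cells, 4 were lower (22.2%, against 0.619% of all protein-coding genes tested), namely CEBPA, NFE2, LAT2 and SELPLG, with a median difference of -1.07. After the libraries were rescaled by the median ratio the count was 7. That list was written with earlier results of these data known and is not independent evidence of its direction.

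Among the higher genes that met the rule for named genes, CYP1A1 (ENSG00000140465) had the largest difference after RUNX1T1. It encodes a monooxygenase induced through the aryl hydrocarbon receptor. CYP1A1 had 0.31, 12.2 and 91.5 FPKM at 0, 12 and 48 h in U937-AE. In U937-CTR it had 0.79, 3.36 and 3.75 FPKM, and in U937-EG it had 0.81 and 2.48 FPKM at 0 and 12 h. The gene was higher at 12 h in all 3 lines, and most so in U937-AE. Its change was 4.93 (interval 4.64 to 6.12), the vector change was 1.97 and the difference was 2.96.

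FCAR (ENSG00000186431), which encodes the IgA receptor CD89 of myeloid cells, went from 3.01 to 31.1 FPKM and reached 56.3 FPKM at 48 h. It did not exceed 1.84 FPKM in U937-CTR, and U937-EG had 1.65 FPKM at both 0 and 12 h. The change was 3.33 (interval 3.14 to 3.61). Uninduced U937-AE was thus already above the others before doxycycline. FCAR was the only member called of 18 tested monocyte surface, Fc and pattern recognition receptors, whose median difference was -0.02. This is 5.56%, against 0.609% of all protein-coding genes tested. CTTN (ENSG00000085733), which encodes cortactin, an activator of actin branching, went from 0.93 to 5.93 FPKM and reached 30.5 FPKM at 48 h. It stayed between 0.67 and 0.998 FPKM in U937-CTR and in U937-EG at 0 and 12 h. Its change was 2.55 (interval 2.38 to 2.98).

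BCL2A1 (ENSG00000140379), an antiapoptotic member of the BCL2 family and a target of NF-κB, went from 18.0 to 80.3 FPKM and was at 80.1 FPKM at 48 h. The empty vector line had 9.49, 13.4 and 25.7 FPKM at 0, 12 and 48 h. U937-AE had thus reached its 48 h level by 12 h. The change was 2.15 (interval 1.95 to 2.36) and the difference 1.66. BCL2A1 was the only member called of 14 tested genes of the BCL2 family, whose median difference was 0.21. This is 7.14%, against 0.609% of all protein-coding genes tested. PMAIP1, which encodes the proapoptotic protein NOXA, had 4.72 and 13.8 FPKM and a difference of 0.87, and BCL2 had 3.03 and 1.37 FPKM and a difference of -0.69.

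PLIN2 (ENSG00000147872), the coat protein of lipid droplets, went from 10.2 to 27.04 FPKM and reached 180.3 FPKM at 48 h, against 10.1, 10.9 and 16.6 FPKM in U937-CTR. SERPINB2, the plasminogen activator inhibitor of monocytes, went from 38.3 to 88.3 FPKM and was back at 41.9 FPKM at 48 h. CLEC2B, a C-type lectin, went from 16.4 to 37.8 FPKM and stayed at 35.4 FPKM. MS4A7, a membrane protein of monocytes and macrophages, went from 2.46 to 5.56 FPKM while it went from 1.94 to 1.26 FPKM in U937-CTR, and it was at 1.19 FPKM in U937-AE at 48 h. EVI2B, a membrane protein of myeloid progenitors, went from 11.4 to 25.1 FPKM.

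Further named genes were higher. RPP40, a subunit of ribonuclease P, went from 2.01 to 6.10 FPKM, YRDC, an enzyme of tRNA modification, from 5.84 to 12.1 FPKM, and SNHG4, a small nucleolar RNA host gene, from 1.79 to 7.70 FPKM. EIF3CL went from 0.88 to 7.02 FPKM and was at 1.17 FPKM at 48 h, but it is a near-identical copy of EIF3C and its reads are uncertain. COX8C, a testis form of a cytochrome c oxidase subunit, went from 13.0 to 27.9 FPKM. None of the 29 tested ribosome biogenesis factors was called. Of these 28 had a difference above 0 and the median difference was 0.41, against 0.02 over all genes tested, with a median change of 0.44 in U937-AE and 0.00 in U937-CTR. MYC, whose targets include such factors, had a difference of 1.06 with a change of 0.51 and was not called.

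**Figure D3:**
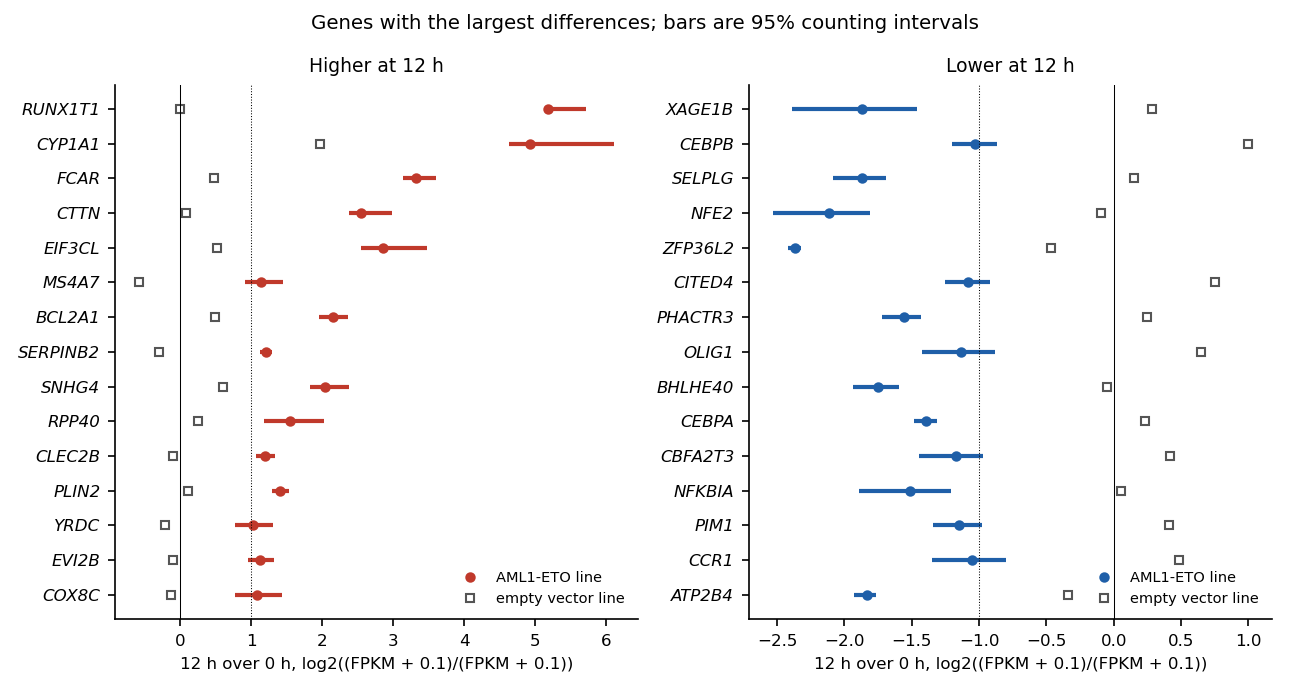
Changes from 0 h to 12 h, as log2 of FPKM plus 0.1, of the 15 named genes with the largest difference in each direction, with U937-AE as filled circles and U937-CTR as open squares. Bars are 95% counting intervals of the read ratio in U937-AE and the dotted line marks 2-fold. The interval lay past 2-fold for ZFP36L2, SELPLG, NFE2 and CEBPA but crossed it for CEBPB, whose open square lies at 0.998.

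Several lists had no called member or 1. With 0.609% and 0.619% of protein-coding genes called, a count of 0 in a list of this size is not a result about the list. None of 20 tested interferon-stimulated genes was called and their median difference was -0.09. OAS1, which makes the oligoadenylates that activate RNase L, had 0.26 and 0.67 FPKM at 0 and 12 h, below the level required for a call, and 28.5 FPKM at 48 h. None of 32 DNA replication genes, 27 mitosis genes, 19 genes of G1 cyclins, CDKs and CDK inhibitors or 21 p53 target genes was called, with median differences of -0.21, -0.06, -0.04 and -0.16. None of 13 azurophil granule genes was called. Of 25 ATF4 stress response genes only CEBPB was called, and the median change of that list was 0.63 in U937-AE and 0.86 in U937-CTR. Of 21 Notch, TGF-β and WNT pathway genes only ID2 was called, with a median difference of -0.36. None of 18 iron and haem genes, 14 MHC genes, 13 protein genes of the mitochondrial genome or 6 listed histone genes was called. HIST1H4K, a histone gene outside that list, was called lower. It went from 1.93 to 0.62 FPKM in U937-AE, with an interval from -4.13 to 0.32 that includes no change.

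**Figure D4:**
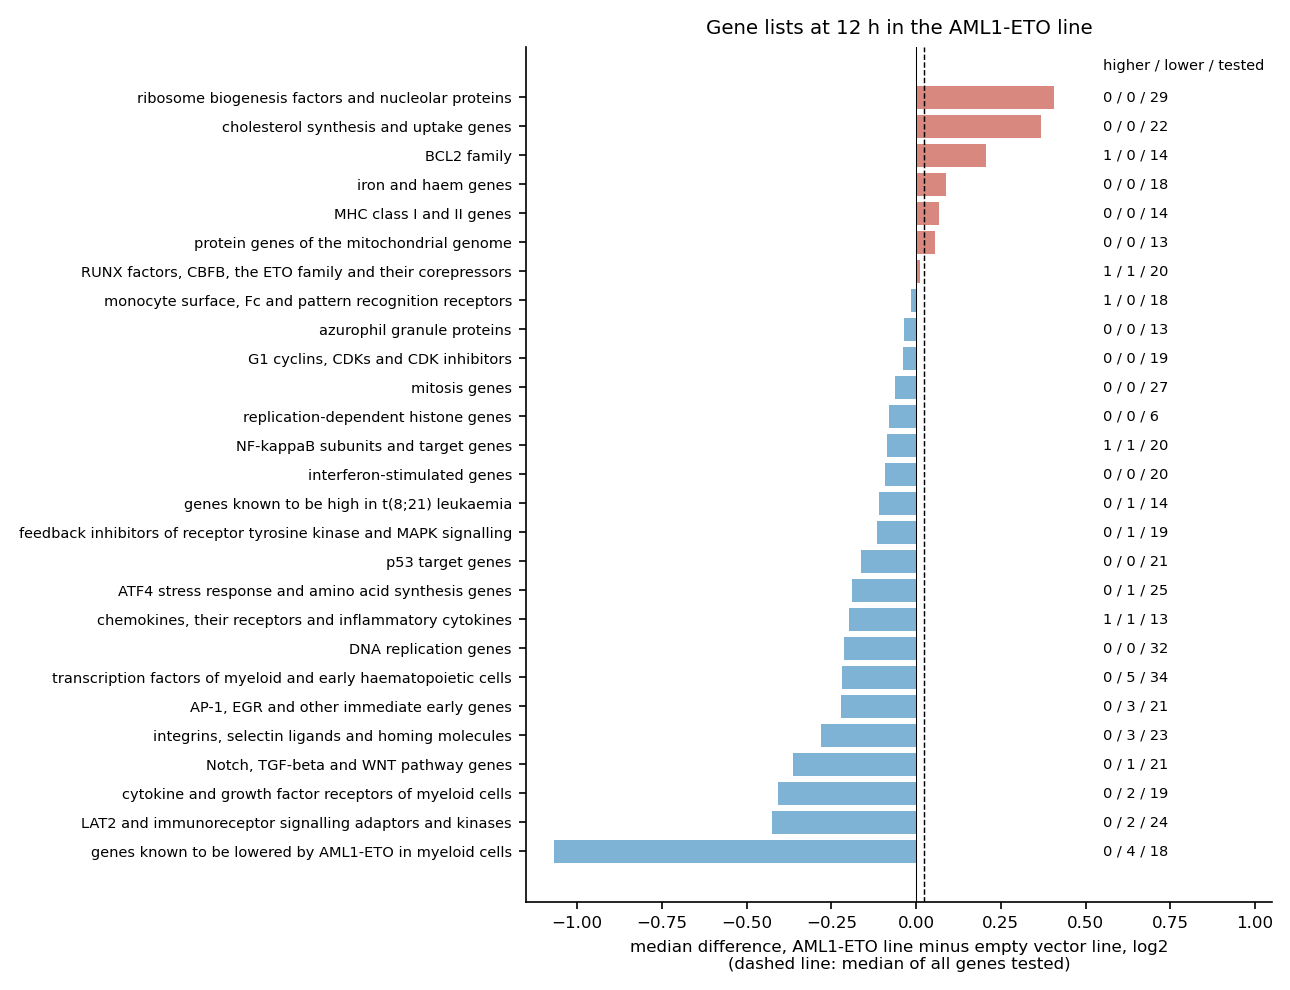
Median difference between U937-AE and U937-CTR (log2) for 27 gene lists, with the number of members higher, lower and tested at the right and the median of all genes tested as a dashed line. Transcription factors of myeloid cells had the most lower members, 5 of 34, and ribosome biogenesis factors had the highest median, 0.41, with none called.

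Markers of the monocytic lineage were used to check the label of the cell line. Of 12 such markers, 8 were tested, none was called, and all 8 had a difference below 0, with a median of -0.44. The median change of the 8 was 0.36 in U937-AE and 0.63 in U937-CTR. The typical marker was thus higher at 12 h in both lines, and more so in U937-CTR. Their summed level was 1349 and 1722 FPKM at 0 and 12 h in U937-AE and 813.0 and 1158 FPKM in U937-CTR, most of it LYZ. CD68 and CD14 were listed at 0 in both AML1-ETO libraries. Of 12 markers of T and B cells 2 were tested, of 13 markers of erythroid cells and megakaryocytes 2 (KLF1 and GP1BA), and of 12 markers of epithelial and stromal cells 1 (PECAM1), with none called. CD3D, CD3E, HBB, EPCAM and CDH1 were listed at 0 in both AML1-ETO libraries.

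The libraries taken at 48 h were not used for the calls and show what became of the early genes. Of the 60 protein-coding genes called lower at 12 h, 50 were over 2-fold lower in U937-AE than in U937-CTR at 48 h (83.3%), against 11.5% of all protein-coding genes tested, and 1 was over 2-fold higher (7.19% of all). Their median ratio at 48 h was -2.47 on the log2 scale. Of the 59 genes called higher, 20 were over 2-fold higher at 48 h (33.9%), against 7.19% of all, and 2 were over 2-fold lower, with a median of 0.72. The gene that was higher is HIST1H4K and the 2 that were lower are CCL23 and IGFBP6, of which only CCL23 met the rule for named genes. In the opposite direction, the 50 genes made up 4.48% of the 1116 protein-coding genes that were over 2-fold lower at 48 h, and the 20 made up 2.87% of the 697 that were over 2-fold higher. Of those 1116 genes, 916 (82.1%) had a difference below 0 at 12 h, against 47.1% of all protein-coding genes tested. Of the 697 genes, 428 (61.4%) had a difference above 0 at 12 h, against 52.9% of all. The 48 h ratio is between 2 lines and includes any difference between them before induction. At 0 h, 5 of the 59 higher genes were over 2-fold above U937-CTR and 5 were over 2-fold below it. Of the 60 lower genes, 4 were over 2-fold above U937-CTR at 0 h and none was over 2-fold below it.

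**Figure D5:**
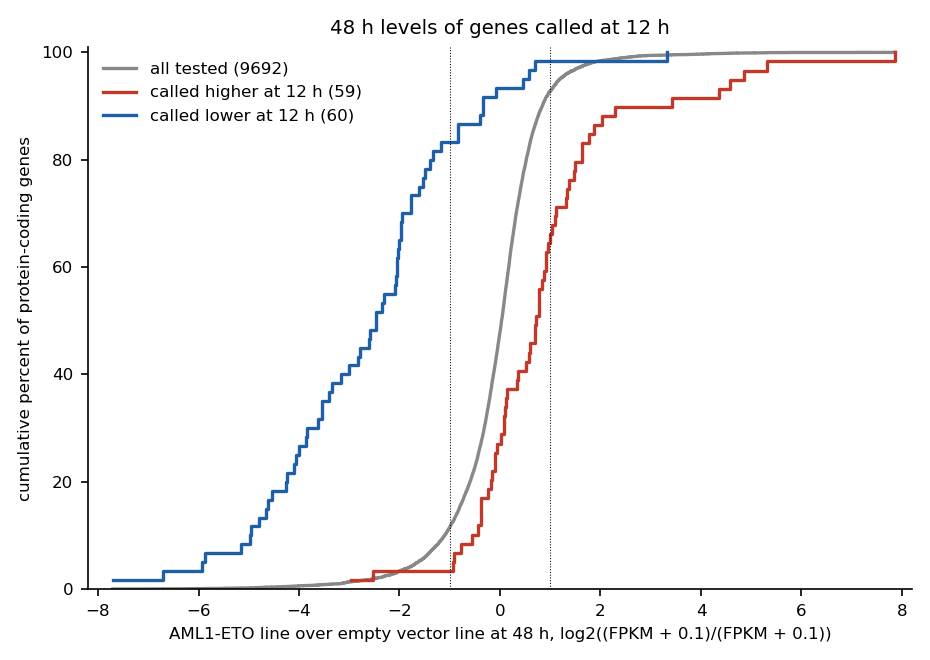
Cumulative percent of protein-coding genes (y axis) against the ratio of U937-AE to U937-CTR at 48 h (x axis, log2 of FPKM plus 0.1), for all 9692 genes tested (grey), the 59 called higher at 12 h (red) and the 60 called lower (blue). Dotted lines mark 2-fold. The blue line reaches 83.3% at the left dotted line, where the grey line is at 11.5%.

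Within U937-AE, 38 of the 60 lower genes (63.3%) were over 2-fold below their 12 h level at 48 h, 19 were within 2-fold of it and 3 were over 2-fold above it, namely HIST1H4K, TRIB1 and JUND. Over all protein-coding genes tested, 10.2% were over 2-fold below. Of the 59 higher genes, 4 were over 2-fold above their 12 h level at 48 h, namely CYP1A1, PLIN2, CTTN and HSF4 (6.78%, against 4.03% of all), 42 were within 2-fold and 13 (22.0%) were over 2-fold below. This comparison shares the 12 h library with the calls. HIST1H4K and HSF4 are outside the rule for named genes and are given because of the counts.

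U937-EG at 0 and 12 h was not used for the calls either. Of the 60 genes called lower, 3 were over 2-fold lower in that clone (5.0%, against 0.619% of all protein-coding genes tested). These were NFE2, IER3 and JUND. Another 3 were over 2-fold higher (5.0%, against 0.805% of all), namely XAGE1B, CBFA2T3 and HIST1H4K. Of the 59 genes called higher, 4 were over 2-fold higher (6.78%, against 0.805% of all) and 2 were over 2-fold lower (3.39%, against 0.619% of all). Called genes thus passed 2-fold more often than all genes in both directions. The 4 were CYP1A1, RPS10, ADAMDEC1 and AAMDC and the 2 were TMEM238 and CRABP2, of which only CYP1A1 met the rule for named genes. Levels in U937-EG were low for RPS10 (0.54 and 2.16 FPKM at 0 and 12 h) and AAMDC (0.25 and 0.66 FPKM). They were also low for TMEM238 (0.47 and 0.16 FPKM) and CRABP2 (0.90 and 0.31 FPKM). A test of the difference between the clones was not possible with 1 library per condition.

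Sequences before the gene starts are shown because the Runt domain reads a short motif. The windows come from the RefSeq promoter table for GRCh38.p14, and only the 250 bases before the start were searched, on both strands. A promoter was matched for 41 of the 60 lower and 43 of the 59 higher protein-coding genes and for 7892 of the protein-coding genes tested. The Runt motif TGTGGT was found before 5 lower genes (12.2%) and 5 higher genes (11.6%), against 7.31% of those tested and 11% of the 35116 promoters in the table. Its variant TGCGGT was found before 6 lower (14.6%) and 4 higher genes (9.3%), against 8.25% of those tested and 5.84% of the table. Either form was found before 11 lower (26.8%) and 9 higher genes (20.9%), against 15% of those tested and 16.3% of the table. The C/EBP motif TTGCNNAA was found before 8 lower (19.5%) and 4 higher genes (9.3%), against 5.87% of those tested and 9.05% of the table. The ETS motif GGAAGT was found before 6 lower (14.6%) and 11 higher genes (25.6%), against 25.7% of those tested. The AP-1 motif TGANTCA was found before 1 lower (2.44%) and 1 higher gene (2.33%), against 3.36%, and the E-box CAGCTG before 7 lower (17.1%) and 4 higher genes (9.3%), against 12.1%. The 5 lower genes with TGTGGT are XAGE1B, ZSCAN31, CCR1, PTPN22 and TRIM58, and the 5 higher ones are SLC22A4, HK2, GPR18, TXNDC17 and GGPS1. These motifs are short, each count is small, and a match is a description of the letters and not of binding.

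Windows of 60 bases are given for 5 of the lower genes, chosen among those with a match that the rule names, with the motif in capitals. Each is written 5′ to 3′ on the strand of the gene, so a motif read on the other strand appears as its reverse complement (ACCACA or ACCGCA). The windows lie on the strand given, at these positions of GRCh38.p14.
CCR1, chr3:46208438-46208497, minus strand, TGTGGT read on the other strand: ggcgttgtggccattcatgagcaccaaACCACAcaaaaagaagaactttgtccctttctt
PTPN22, chr1:113871890-113871949, minus strand, TGTGGT read on the other strand: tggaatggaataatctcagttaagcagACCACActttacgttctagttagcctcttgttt
ATP2B4, chr1:203626668-203626727, plus strand, TGCGGT read on the other strand: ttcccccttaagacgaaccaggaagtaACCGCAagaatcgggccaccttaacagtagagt
IL6R, chr1:154405271-154405330, plus strand, TGCGGT read on the other strand: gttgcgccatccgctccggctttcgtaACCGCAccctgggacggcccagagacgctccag
IL10RA, chr11:117989721-117989780, plus strand, the C/EBP motif: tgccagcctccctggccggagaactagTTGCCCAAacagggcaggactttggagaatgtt

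The first motif lies 157 bases before the start of CCR1, 210 before that of PTPN22 (the first of 3 in the window searched), 137 before that of ATP2B4, 45 before that of IL6R and, for the C/EBP motif, 197 before that of IL10RA. The start is that of the promoter table, and for IL10RA it lies inside the RefSeq span of the gene (chr11:117986394-118003037). At 12 h these genes had 3.94, 4.57, 10.4, 28.2 and 2.02 FPKM in U937-AE, and each was higher than that at 0 h. CEBPA has neither form of the Runt motif in this window, which says only that these letters were not found there. SELPLG, NFE2 and ZFP36L2 had no entry in the table.

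The genes next to the 2-fold limit were mostly small or had few reads on the higher side. Just inside it on the higher side lay a Y_RNA gene and MIR193A, each with 1 read at 0 h and 2 reads at 12 h, and SNRPGP15 with 10 and 19 reads. Just outside lay CCDC86, which went from 5.32 to 11.5 FPKM, ZNF587B and AC006213.4. On the lower side KCNE1B, PTPN22 and RN7SL172P lay just inside and PPP1R27, GLUL and NDRG1 just outside. GLUL, glutamine synthetase, had 86.8 and 30.4 FPKM in U937-AE on 12992 and 4233 reads. It was not called because U937-CTR went from 88.5 to 62.0 FPKM.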

How the data were processed

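RNA-seq libraries of U937 lines were made with the TruSeq kit (version 2) and sequenced on an Illumina NovaSeq instrument. Alignment to hg38 was by HISAT2 (2.0.5) with SAMtools (1.7), HTSeq (0.9.1) made the gene counts, and the authors deposited FPKM for 60623 Ensembl genes, 1 file per library. DESeq2 (1.22.2) is listed in the submitters' processing notes with no role given. Neither the annotation release nor how exon length was defined is given in the sources used here. FPKM is relative to the total of reads on genes, so a change in a few abundant genes shifts all others.

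Whole reads were recovered from the steps between low FPKM values, for 23873 of 23889 genes above 0 in at least 3 libraries (99.93%), and gave totals between 15136398 and 18443639 reads. They were used for intervals only. Changes are log2 of FPKM plus 0.1, for genes with a mean of at least 1 FPKM over the AML1-ETO libraries at 0 and 12 h. A gene was called when its change and the difference from the empty vector line both passed 2-fold. Replication was 1 library per condition, so no test was run. The calling was tested on simulated data. Samples were grouped by their titles. The study used a fold change and left out genes altered in the empty vector line. Here the change of that line was subtracted instead, and leaving such genes out was run as an alternative.

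The rule for named genes took RUNX1T1 and RUNX1 and, in each direction, the 15 called genes with the largest difference. These needed at least 5 FPKM in the higher AML1-ETO library, at least 300 bases of exon and a RefSeq entry, and pseudogenes were left out. The rule also took up to 4 called members of each of 32 lists and 3 genes on each side of the limit. A further 10 genes were taken whatever their values. The members, the lists and the rules were chosen with earlier results of these data known. Gene types come from GENCODE on GRCh37, from which no coordinate was taken, and cover 99.3% of the genes tested. Positions and promoters come from RefSeq on GRCh38.p14. One gene called lower carries a date in place of its name, a trace of a spreadsheet, and is counted but not named. Analyses used Python (3.11.15), numpy (2.4.6), pandas (2.3.3), scipy (1.17.1) and matplotlib (3.10.9). Alternatives covered the pseudocount, the level filter, the scaling, the fold limit, the use of the empty vector line, the reference library and, chosen after seeing the data, gene type, length and reads. Results for a few genes and 1 gene list are not reported here.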

Additional observations from a re-analysis of the deposited data

Results flagged for a closer look

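XAGE1B changed in opposite directions in both lines that express a fusion protein. It went from 8.62 to 2.29 FPKM in U937-AE, a change of -1.87, and from 0.61 to 13.5 FPKM in U937-EG, a change of 4.25. It has near-identical copies, and its levels before induction differed between the lines, with 0.83 FPKM in U937-CTR. CBFA2T3 changed by -1.17 in U937-AE and by 1.45 in U937-EG, whose construct carries part of this gene. With 1 library per condition neither difference was tested.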

How the results depend on the processing

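The counts of higher and lower genes depended on the limits. They were 299 and 161 as reported and became 321 and 172 with a pseudocount of 0.01, 150 and 86 with a pseudocount of 1, 44 and 45 with a mean of at least 5 FPKM, and 1839 and 1329 with no filter on low values. At 1.5-fold they were 772 and 462, at 4-fold 86 and 36, and with the counting interval wholly past 2-fold 70 and 47. Without U937-CTR they were 717 and 264, and with subtraction alone 443 and 474. With genes that passed 2-fold in U937-CTR left out they were 502 and 187. Against U937-CTR at 12 h they were 247 and 301, of which 169 and 81 were also called as reported. Of the 299 higher genes, 29.4% were over 2-fold below U937-CTR at 0 h. Of the 161 lower genes, 41.0% were over 2-fold above it. Among protein-coding calls these shares were 8.47% and 6.67%. Rescaling the libraries by the median ratio, which moved the median AML1-ETO change by 0.14, gave 261 and 208, of which 260 and 161 were also called as reported. Alternatives chosen after seeing the data gave 164 and 94 for genes of at least 300 bases, 59 and 60 for protein-coding genes, 48 and 60 for genes with at least 100 reads in 1 of both libraries, and 32 and 37 for protein-coding genes with the interval past 2-fold. The share of calls that were higher was 65.0% as reported, 49.4% with a mean of at least 5 FPKM, 55.7% after rescaling, 73.1% without U937-CTR, 49.6% for protein-coding genes, 44.4% with at least 100 reads and 46.4% for protein-coding genes with the interval past 2-fold. It was 48.3% with subtraction alone, 45.1% against U937-CTR at 12 h and 63.6% for genes of at least 300 bases, so which direction had more calls depended on gene type, level, reads and the use of U937-CTR. Of the values of named genes under the alternatives, 243 moved by less than their counting error and 31 moved by more. No called gene reversed in sign, and genes that were not called were not checked for reversal. RUNX1, which was not called, had a difference of -0.15 and, without U937-CTR, a change of 0.03. Of the counts of called list members under the alternatives 34 moved by over 1.5 times and 286 did not, and of the list medians 13 moved and 145 did not. Some list medians changed sign without U937-CTR. Among them were those of the cholesterol list (0.37 to -1.57) and the ATF4 list (-0.19 to 0.63). With a pseudocount of 1 FPKM the lower member of the ETO family and corepressor list and those of the chemokine, MAPK feedback, ATF4 and t(8;21)-high lists were not called. No paired analysis was possible because each condition had 1 library. Depth limited genes with few reads, and the spread between cultures was not measured.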
